A study of Mus musculus with 36 samples.

Results

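The left ventricle (LV) of the mouse was described here 8 weeks after myocardial infarction (MI), when the infarct has become a mature scar. The members were 6 mRNA libraries, 3 from MI and 3 from sham-operated mice, of 36 libraries in the series, 18 of them of mRNA. They were chosen by stage and operation, with earlier results of these data known. Within them, 11689 of the 16415 listed genes had at least 1 FPKM (reads of a gene scaled to its length and to the mapped reads of the library) in at least 3 of the 6 libraries and were tested. The MI mice were C57BL/6 males, aged 8 weeks at surgery, whose left anterior descending coronary artery was tied off and whose hearts were collected 8 weeks later. The sham mice were of the same strain, sex and age, had the same surgery with no occlusion and were also killed after 8 weeks, and no engineered allele or drug treatment is named for either group. Each library is of pooled LV RNA, the number of animals in a pool is not stated, and scar, border zone and remote muscle were not separated. The p-values therefore measure only the spread between these libraries, which may be technical. The libraries are called MI 1 to 3 and sham 1 to 3, and the values of a group follow these numbers. The mRNA values are FPKM, which do not give the depth of a library, so that depth is unknown here and no counting error is given.

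After an infarct, dead cardiomyocytes are cleared and the gap is filled with collagen that resident fibroblasts lay down. Over the following weeks these fibroblasts leave the contractile myofibroblast state and become matrifibrocytes, which hold the scar with tendon- and cartilage-like matrix proteins, while collagen fibres are crosslinked and organized by small proteoglycans. The surviving muscle carries a larger load, enlarges, returns to a fetal programme of natriuretic peptides and slow myosin, and uses less fatty acid.

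The 3 MI libraries differed from each other far more than the 3 sham libraries did. Over the tested genes, the correlation of log2(FPKM + 1) was 0.9766 between MI 1 and MI 2, 0.974 between MI 2 and MI 3 and 0.9363 between MI 1 and MI 3, against 0.9953 to 0.9955 among sham libraries. The median SD of a gene was 0.268 on the log2 scale in MI and 0.065 in sham, and 10630 of 11689 genes (90.9%) had the larger SD in MI. The range of the MI libraries exceeded 1 on the log2 scale for 1742 genes, against 38 genes for the sham libraries. By the number of genes far from sham, MI 3 stood farthest away and MI 1 nearest. Relative to the sham mean, 1570 genes were at least 2-fold higher and 105 lower in MI 1, 2684 and 128 in MI 2, and 4286 and 469 in MI 3 (on the log2(FPKM + 1) scale, which understates the change of low genes). MI 3 was the highest and MI 1 the lowest MI library for 5363 of the 6778 genes called higher in MI and for 65.6% of all tested genes. The 100 most abundant genes held 38.5, 33.1 and 29.5% of all FPKM in the MI libraries, against 42.2, 42.3 and 42.3% in the sham libraries.

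Markers of the labelled tissue were high in all 6 libraries, and markers of other tissues stood above sham in the MI libraries, not all in the same ones. The mean log2(FPKM + 1) of 20 ventricular cardiomyocyte markers was 10.25, 9.78 and 9.09 in the MI libraries, against 10.52, 10.54 and 10.61 in the sham libraries. Adipoq, the adipocyte hormone adiponectin, had 0.157, 46.1 and 119 FPKM in MI, against 0.103, 0.0911 and 0.114 FPKM in sham. Car3, a carbonic anhydrase abundant in fat, had 0.731, 159 and 523 FPKM in MI, against 0.421, 0.0943 and 0.466 FPKM in sham. Both stood below 1 FPKM in MI 1 and far above sham in MI 2 and MI 3. The fat genes Cfd, Cdo1 and Scd1 were above every sham library in MI 1 too. They had 1.47, 1.61 and 3.86 FPKM there. The summed level of the 17 listed adipocyte markers was 662, 1796 and 3644 FPKM in MI, against 722, 794 and 828 FPKM in sham, of which Fabp4, also a gene of capillary endothelium, made up 606, 1014 and 1259 FPKM in the MI libraries. Fast skeletal muscle genes were highest in MI 3, and MI 1 was above MI 2. Tnnt3, the fast skeletal troponin T, had 6.93, 1.06 and 77.3 FPKM in MI, against 0.281, 0.108 and 0.450 FPKM in sham, and the 18 listed skeletal muscle markers summed to 118, 59.6 and 467 FPKM in MI, against 39.8, 48.9 and 57.7 FPKM in sham. Mesothelial genes were also highest in MI 3: Upk3b, a uroplakin of the mesothelium, had 4.38, 8.02 and 79.3 FPKM in MI, against 0.0290, 0 and 0 FPKM in sham, and the 14 listed mesothelial and epicardial markers summed to 38.8, 75.1 and 317 FPKM in MI, against 15.9, 15.0 and 16.4 FPKM in sham. Ager, a receptor abundant in lung alveolar epithelium, had 0.794, 20.7 and 1.24 FPKM in the MI libraries, so that MI 2 alone was high, against 0.0940, 0.0829 and 0.0755 FPKM in the sham libraries. The part of these cells in the results that follow was not tested, and the value of MI 1, where fat and lung genes were lowest, is given wherever the levels of a gene are.

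**Figure D1:**
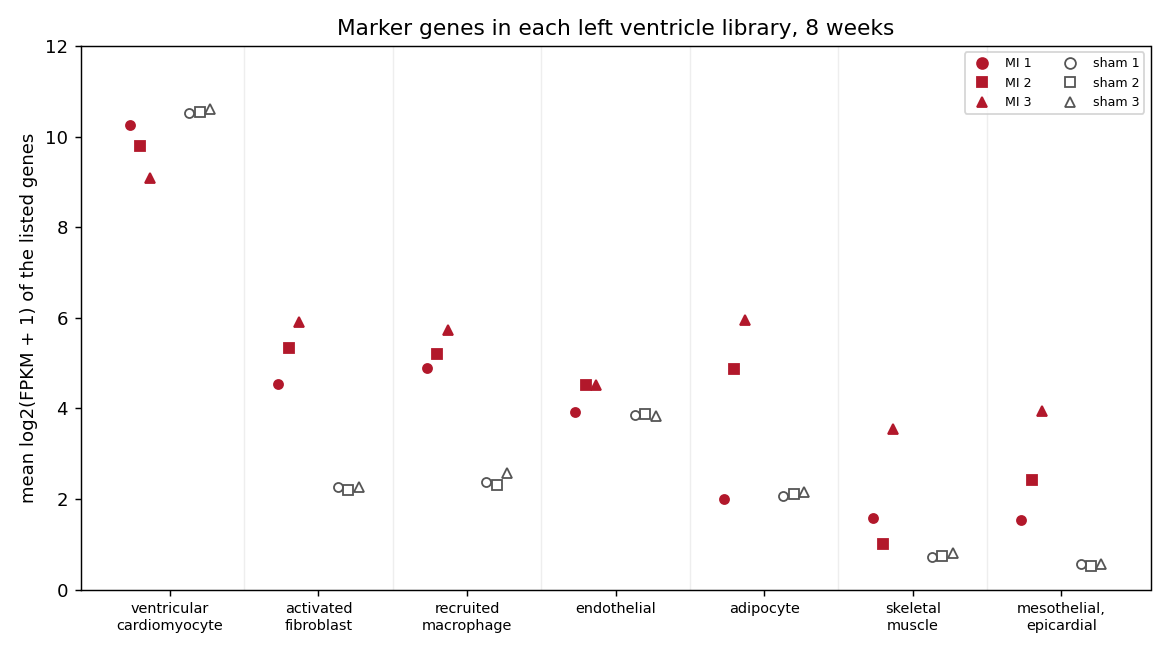
Mean log2(FPKM + 1) of the genes of 7 marker lists in each of the 6 libraries, with MI libraries in red on the left and sham libraries in grey on the right of each list. Cardiomyocyte markers were at 9.09 in MI 3, the lowest MI library, against 10.52 in the lowest sham library, and adipocyte markers were at 2.01 in MI 1, 4.87 in MI 2 and 5.95 in MI 3, against 2.07 to 2.16 in the sham libraries.

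Comparing MI with sham asked which transcripts still differed once the scar was mature. Of 11689 genes, 6778 (58.0%) were higher and 1006 (8.61%) lower in MI (limma with an intensity trend on log2(FPKM + 1), Benjamini-Hochberg adjusted p below 0.05 over all tested genes). The median log2 fold change of all genes was 0.526, and the split between directions depended on the scaling. With quantile normalization 2806 genes (24.0%) were higher and 3836 (32.8%) lower. Under median-ratio factors these numbers were 3489 (29.8%) and 3493 (29.9%), and with the authors' normalized values 2896 (24.8%) and 3847 (32.9%). The direction of 260 genes called higher was called the opposite under at least 1 of these, and of no gene called lower. Below, the genes of a list that were called in the same direction under all 4 scalings are counted beside those of the main test, with, where these differ, the range of calls and medians under the other 3 scalings. Over all genes those called alike under all 4 numbered 2578 higher (22.1%) and 1000 lower (8.56%). The MI and sham libraries did not overlap for 8991 genes (76.9%). Without MI 1 the lower calls were 1314, and without sham 1, 2 or 3 they were 639, 636 and 582. Since a gene may pass the filter through the MI libraries alone, as did 1101 tested genes with less than 1 FPKM in every sham library, such a gene had to differ, and counts over tested list members are descriptions. Such genes were 3 of 9 fibrillar collagens, 6 of 16 other collagens and 5 of 21 matricellular genes. They were also 3 of 11 small leucine-rich proteoglycans and 5 of 20 metalloproteinases and TIMPs. In signalling lists they were 9 of 26 TGF-beta and activin genes and 3 of 7 secreted Wnt modulators. In bulk tissue, fewer cells of a type and less RNA per cell cannot be told apart.

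The largest rises were of secreted proteins of the scar. Comp, the cartilage oligomeric matrix protein that bridges collagen fibrils in tendon and cartilage, had 264, 493 and 951 FPKM in MI, against 1.24, 0.718 and 1.09 FPKM in sham (log2 fold change 7.96 ± 0.42, adjusted p = 0.000181, with the standard error). It lies on chromosome 8, 70373548 to 70382066 (GRCm38.p6, the build mm10). Sfrp2, a secreted inhibitor of Wnt ligands that also aids collagen processing, had 144, 301 and 703 FPKM in MI, against 1.18, 0.783 and 0.671 FPKM in sham (log2 fold change 7.39 ± 0.51, adjusted p = 0.000327), and its gene is on chromosome 3, 83765750 to 83774314. Both lay near 1 FPKM in sham hearts, and even their lowest MI library exceeded every sham library more than 100-fold. Angptl7, an angiopoietin-like protein of cornea and tendon-like tissue, had 79.8, 224 and 341 FPKM in MI, against 0.3003, 0.370 and 0.285 FPKM in sham (log2 fold change 7.13 ± 0.48, adjusted p = 0.000307), and overlaps Mtor, whose reads cannot be told from its own without strand. Fmod, fibromodulin, a proteoglycan that sets collagen fibril thickness, had 84.4, 166 and 317 FPKM in MI, against 0.230, 0.153 and 0.787 FPKM in sham (log2 fold change 6.92 ± 0.45, adjusted p = 0.000307). Wisp2, a CCN family matricellular protein, had 180.5, 215 and 335 FPKM in MI, against 1.39, 1.23 and 0.786 FPKM in sham (log2 fold change 6.80 ± 0.24, adjusted p = 5.27e-05). In this gene the 3 MI libraries lay closer together than in Comp or Sfrp2. Spp1 (osteopontin), Mfap4, Dkk3 and Mmp12 completed the 10 largest rises by the naming rule together with Cfd, which was high in MI 2 and MI 3 only (1.47, 206 and 1064 FPKM in MI, against 0.514, 0.303 and 0.284 FPKM in sham). Cfd is factor D of complement and a product of fat cells (log2 fold change 5.90 ± 1.98, adjusted p = 0.0335), and it was no longer called with quantile normalization, with the authors' values or when any single library other than MI 1 was left out.

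**Figure D2:**
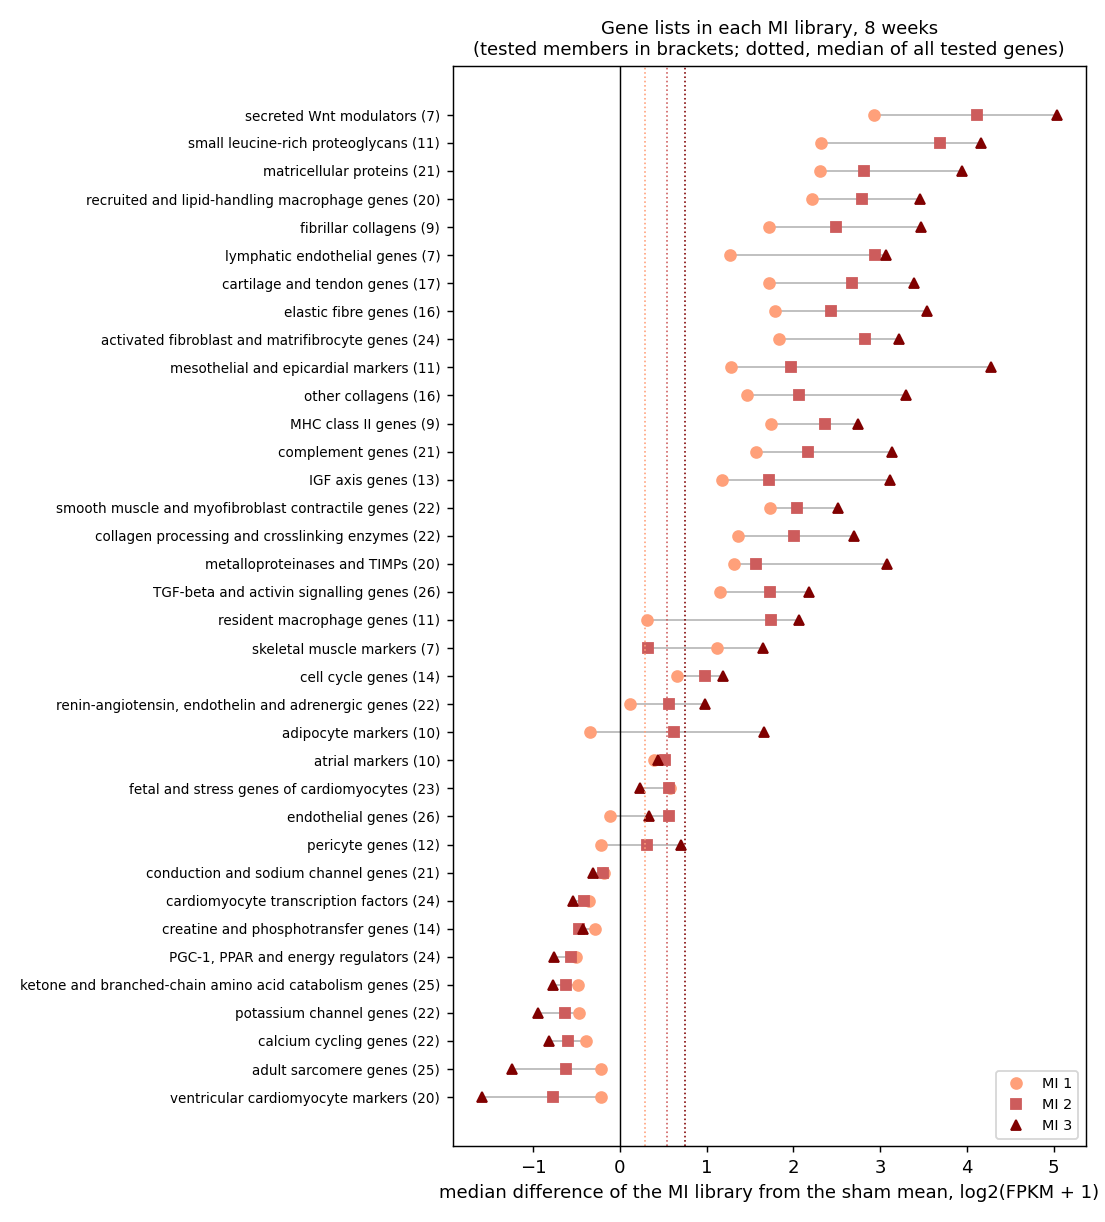
Median difference of each MI library from the sham mean, on the log2(FPKM + 1) scale, over the tested members of each list with at least 7 of them; dotted lines, the median over all tested genes (0.294, 0.541 and 0.753 in MI 1, MI 2 and MI 3). Scar lists lie right of zero in every MI library with MI 3 farthest out, and the lists of sarcomere, calcium cycling and channel genes lie left of it.

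Collagen mRNA was still high 8 weeks after MI. Of 11 fibrillar collagens, 9 were tested, 8 rose and none fell (58.0% and 8.61% of all genes), 7 of them under all 4 scalings, with a median log2 fold change of 2.56 against 0.53 over all genes. Col1a1, a chain of collagen I, the main fibre of scar, had 112, 190.3 and 534 FPKM in MI, against 10.9, 11.2 and 12.5 FPKM in sham (log2 fold change 4.17 ± 0.51, adjusted p = 0.0011). Col3a1, the chain of the finer collagen III, had 208, 350.4 and 934 FPKM in MI, against 26.4, 26.4 and 26.4 FPKM in sham (log2 fold change 3.90 ± 0.49, adjusted p = 0.00118). Both were lowest in MI 1 and highest in MI 3, and even MI 1 was above every sham library. The 11 fibrillar collagens summed to 507, 882 and 2327 FPKM in MI, against 62.8, 63.0 and 65.6 FPKM in sham. Of other collagens, 16 of 31 listed were tested, 14 rose (12 under all 4 scalings) and none fell, with a median of 2.29. Col8a2, a short-chain network collagen, had 11.97, 22.2 and 48.6 FPKM in MI, against 0.0516, 0.0531 and 0.0642 FPKM in sham (log2 fold change 4.54 ± 0.44, adjusted p = 0.000648). Col14a1, which sits on the surface of collagen I fibrils, had 16.4, 40.6 and 78.0 FPKM in MI, against 1.33, 1.23 and 1.19 FPKM in sham (log2 fold change 4.10 ± 0.49, adjusted p = 0.00105). The basement membrane chain Col4a1 had 61.7, 107 and 154 FPKM in MI, against 74.2, 73.8 and 80.7 FPKM in sham, so that MI 1 lay below sham (log2 fold change 0.40 ± 0.30, adjusted p = 0.265, and 0.00338 without MI 1).

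Genes that process and crosslink collagen rose with it. Of 22 tested, 19 rose (16 under all 4 scalings), with a median of 2.10, and none fell, but 2 did under each of the other 3 scalings. Lox, lysyl oxidase, which crosslinks collagen and elastin, had 10.1, 19.3 and 53.6 FPKM in MI, against 0.971, 0.915 and 1.15 FPKM in sham (log2 fold change 3.52 ± 0.52, adjusted p = 0.00183). Loxl3, a related oxidase, had 14.2, 19.4 and 32.8 FPKM in MI, against 1.06, 0.944 and 1.09 FPKM in sham (log2 fold change 3.43 ± 0.28, adjusted p = 0.000461). Pcolce, which speeds removal of the collagen propeptide, had 58.8, 89.3 and 146 FPKM in MI, against 15.4, 14.5 and 18.3 FPKM in sham (log2 fold change 2.45 ± 0.30, adjusted p = 0.00116). Serpinh1, the collagen chaperone HSP47, had 97.7, 144 and 223 FPKM in MI, against 89.2, 77.6 and 95.5 FPKM in sham, with the groups not overlapping but just short of the threshold (log2 fold change 0.74 ± 0.28, adjusted p = 0.05004, and 0.00205 without MI 1).

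Small leucine-rich proteoglycans, which bind collagen and shape its fibrils, were among the most abundant scar transcripts in FPKM. All 11 that were tested of 15 listed rose, and all 11 did so under the 4 scalings, with a median of 3.39 and medians of 2.32, 3.70 and 4.17 in MI 1, MI 2 and MI 3. Bgn, biglycan, had 789, 1279.9 and 2488 FPKM in MI, against 55.2, 51.0 and 59.2 FPKM in sham (log2 fold change 4.60 ± 0.38, adjusted p = 0.000491). Dcn, decorin, had 649, 1453 and 1822 FPKM in MI, against 152, 149.7 and 155 FPKM in sham (log2 fold change 2.97 ± 0.36, adjusted p = 0.00109). Their levels in FPKM exceeded those of Col1a1 and Col3a1 in the same MI libraries. Prelp, a proteoglycan that anchors basement membrane to collagen, had 104, 244 and 393 FPKM in MI, against 8.70, 8.49 and 8.85 FPKM in sham (log2 fold change 4.48 ± 0.43, adjusted p = 0.000648). Chad, chondroadherin of cartilage, had 8.52, 23.3 and 53.1 FPKM in MI, against 0.0183, 0 and 0.243 FPKM in sham (log2 fold change 4.42 ± 0.56, adjusted p = 0.00123) and was at or near 0 in sham hearts.

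**Figure D3:**
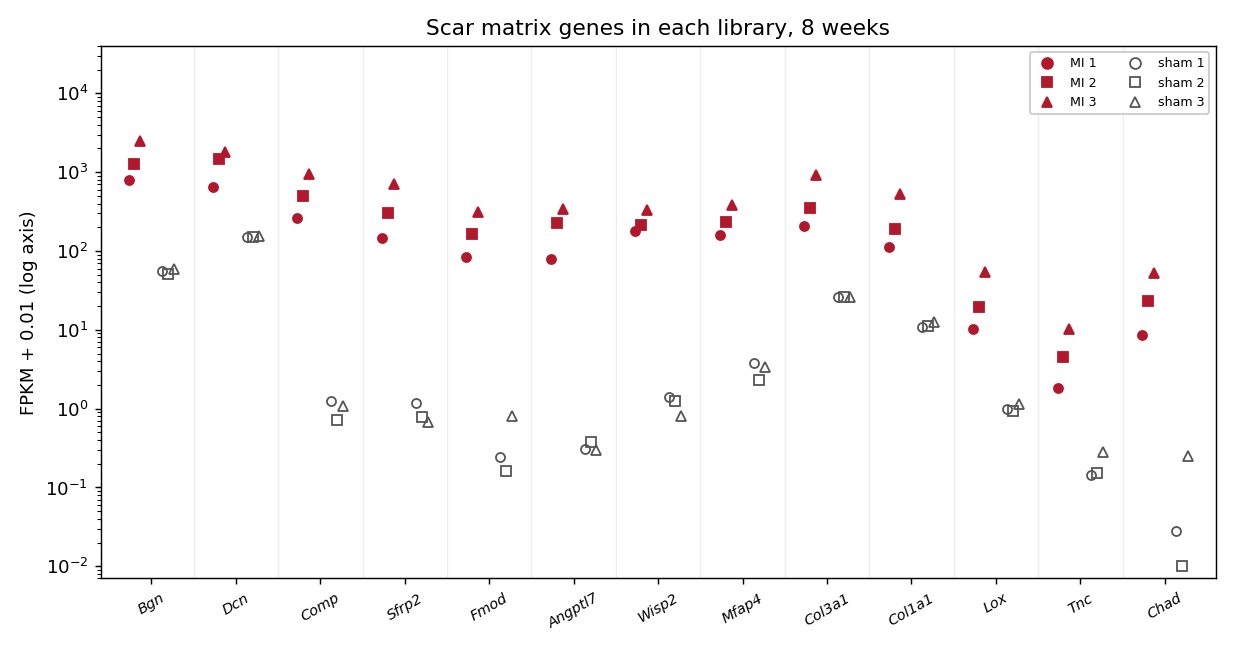
FPKM of 13 scar matrix genes in each library on a log axis, after adding 0.01 so that zeros can be drawn; MI in red on the left, sham in grey on the right of each gene. All MI libraries lie above all sham libraries, and MI 1 is the lowest MI library for each gene shown, with 264, 493 and 951 FPKM for Comp in the MI libraries, against 1.24, 0.718 and 1.09 FPKM in the sham libraries.

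The list of cartilage and tendon genes, which besides Comp, Fmod and Chad holds regulators of these tissues, had 17 of 31 members tested, of which 16 rose and none fell (15 under all 4 scalings, median 2.52), while 1 fell under each of the other 3. Of the 17, 9 lay below 1 FPKM in every sham library, Sox9 among them. These passed the filter through the MI libraries alone and had to be higher there. Cilp, a cartilage intermediate layer protein and marker of the matrifibrocyte, had 33.6, 71.5 and 68.6 FPKM in MI, against 1.09, 1.03 and 1.33 FPKM in sham (log2 fold change 4.70 ± 0.28, adjusted p = 0.000246). Cytl1, a cytokine-like protein of cartilage, had 48.5, 87.9 and 108 FPKM in MI, against 9.15, 6.84 and 5.87 FPKM in sham (log2 fold change 3.26 ± 0.30, adjusted p = 0.000596). Of defining regulators, Sox9, the transcription factor of chondrocytes, had 2.90, 6.54 and 9.63 FPKM in MI, against 0.142, 0.254 and 0.157 FPKM in sham (log2 fold change 2.52 ± 0.34, adjusted p = 0.00143). Scx, scleraxis of tendon, had 8.83, 8.46 and 9.46 FPKM in MI, against 3.81, 2.88 and 2.58 FPKM in sham (log2 fold change 1.29 ± 0.15, adjusted p = 0.000929). Col2a1, the collagen of cartilage, reached only 1.35, 1.26 and 8.69 FPKM in the MI libraries, most in MI 3, against 0.00563, 0 and 0 FPKM in the sham libraries.

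All 21 tested matricellular genes, secreted proteins that signal to cells from the matrix without building it, rose (19 under all 4 scalings, median 2.91). Spp1, osteopontin of macrophages and matrix, had 116, 145 and 371 FPKM in MI, against 0.262, 0.205 and 0.290 FPKM in sham (log2 fold change 7.21 ± 0.40, adjusted p = 0.000202). Ctgf, a target of TGF-beta that drives collagen synthesis, had 289.5, 409 and 611 FPKM in MI, against 18.3, 32.4 and 23.0 FPKM in sham (log2 fold change 4.07 ± 0.30, adjusted p = 0.000381). Thbs4, a thrombospondin of tendon, had 27.8, 62.0 and 50.5 FPKM in MI, against 0.887, 1.10 and 1.26 FPKM in sham (log2 fold change 4.45 ± 0.28, adjusted p = 0.000297), with MI 2 the highest. Sparc, a collagen-binding protein needed for fibril assembly, had 370.4, 589 and 1224 FPKM in MI, against 83.1, 82.0 and 89.7 FPKM in sham (log2 fold change 2.91 ± 0.39, adjusted p = 0.00143). Of elastic fibre genes, 15 of 16 tested rose (13 under all 4 scalings, median 2.49), and 1 fell without MI 3. Ltbp2, a microfibril-bound protein, had 31.3, 54.0 and 94.7 FPKM in MI, against 0.225, 0.259 and 0.340 FPKM in sham (log2 fold change 5.44 ± 0.36, adjusted p = 0.000307). Mfap4, which binds elastin and collagen, had 162, 231 and 384 FPKM in MI, against 3.73, 2.27 and 3.39 FPKM in sham (log2 fold change 5.90 ± 0.31, adjusted p = 0.000181). Eln itself, elastin, had 30.2, 41.0 and 105 FPKM in MI, against 9.21, 7.55 and 9.17 FPKM in sham (log2 fold change 2.43 ± 0.42, adjusted p = 0.00306).

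Matrix-degrading enzymes and their inhibitors also rose. Of 20 tested metalloproteinases and TIMPs, 17 rose and 2 fell (12 and 2 under all 4 scalings, median 2.05). Mmp12, the elastase of macrophages, had 54.3, 36.6 and 55.3 FPKM in MI, against 0.125, 0.0184 and 0.1297 FPKM in sham (log2 fold change 5.49 ± 0.18, adjusted p = 5.27e-05), with little spread among MI libraries. Mmp2, a gelatinase of fibroblasts, had 63.5, 121 and 215 FPKM in MI, against 10.2, 9.82 and 9.10 FPKM in sham (log2 fold change 3.48 ± 0.39, adjusted p = 0.000909). Timp1, an inhibitor induced by injury, had 35.9, 46.5 and 87.0 FPKM in MI, against 0.619, 1.27 and 2.04 FPKM in sham (log2 fold change 4.58 ± 0.36, adjusted p = 0.000429). Timp4 and Mmp15 were the genes that fell. Timp4, an inhibitor abundant in heart muscle, had 9.95, 13.3 and 6.50 FPKM in MI, against 27.6, 32.4 and 34.5 FPKM in sham (log2 fold change -1.62 ± 0.23, adjusted p = 0.0017). Mmp15, a membrane-bound protease, had 8.16, 8.95 and 6.39 FPKM in MI, against 17.8, 20.1 and 17.7 FPKM in sham (log2 fold change -1.15 ± 0.14, adjusted p = 0.00109).

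Fibroblast signalling genes remained above sham. Of 26 tested TGF-beta and activin genes, 24 rose (23 under all 4 scalings, median 1.74) and none fell, but 1 did under each of the other 3 scalings, with medians of 1.11 to 1.22. Tgfb3, a TGF-beta ligand, had 23.7, 37.1 and 57.7 FPKM in MI, against 2.90, 3.22 and 3.05 FPKM in sham (log2 fold change 3.23 ± 0.29, adjusted p = 0.000566). Tgfbr2, its receptor, had 19.3, 42.2 and 65.4 FPKM in MI, against 8.51, 8.28 and 8.83 FPKM in sham (log2 fold change 2.02 ± 0.39, adjusted p = 0.00444). Fstl1, a follistatin-like glycoprotein of mesenchyme, had 105, 190.0 and 341 FPKM in MI, against 13.4, 14.1 and 16.4 FPKM in sham (log2 fold change 3.61 ± 0.38, adjusted p = 0.000811). Of 16 secreted Wnt modulators, 7 were tested and 6 rose (5 under all 4 scalings, median 4.03). Besides Sfrp2 these included Frzb and Dkk3. Frzb, a frizzled-related protein, had 22.8, 49.5 and 83.8 FPKM in MI, against 0.646, 0.910 and 1.21 FPKM in sham (log2 fold change 4.61 ± 0.42, adjusted p = 0.000598). Dkk3, a dickkopf family protein, had 34.9, 85.2 and 108 FPKM in MI, against 0.388, 0.437 and 0.765 FPKM in sham (log2 fold change 5.52 ± 0.39, adjusted p = 0.000338).

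Among markers of activated fibroblasts and matrifibrocytes, 22 of 24 tested rose and 1 fell (21 and 1 under all 4 scalings), with a median of 2.49 and medians of 1.84, 2.82 and 3.22 in MI 1, MI 2 and MI 3. Postn, periostin, which marks fibroblasts activated by injury, had 86.5, 177 and 289 FPKM in MI, against 6.00, 6.70 and 5.68 FPKM in sham (log2 fold change 4.54 ± 0.39, adjusted p = 0.000546). Meox1, a transcription factor of activated fibroblasts, had 20.4, 32.2 and 35.0 FPKM in MI, against 4.63, 4.09 and 4.73 FPKM in sham (log2 fold change 2.43 ± 0.20, adjusted p = 0.000513). Tcf21, the factor of resting cardiac fibroblasts, was also higher, with 12.7, 28.5 and 38.7 FPKM in MI, against 2.46, 2.50 and 2.24 FPKM in sham (log2 fold change 2.89 ± 0.36, adjusted p = 0.00117). Gsn, gelsolin, an actin-severing protein abundant in quiescent fibroblasts, had 801, 1748 and 1849 FPKM in MI, against 240.0, 243 and 249 FPKM in sham (log2 fold change 2.49 ± 0.32, adjusted p = 0.00124). The gene that fell was Lrrc15, a myofibroblast marker in other fibrotic tissues, with 0.878, 1.27 and 1.11 FPKM in MI, against 3.45, 3.16 and 3.26 FPKM in sham (log2 fold change -1.04 ± 0.13, adjusted p = 0.00108).

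Contractile genes of smooth muscle and myofibroblasts rose in 17 of 22 cases, all of them under the 4 scalings, with a median of 2.16, and none fell, but 2 to 4 did under the other 3 scalings. The share that rose was 77.3%, against 58.0% of all genes. Acta2, smooth muscle actin, the defining myofibroblast gene, had 161, 146 and 214 FPKM in MI, against 34.4, 31.1 and 33.9 FPKM in sham (log2 fold change 2.34 ± 0.15, adjusted p = 0.000307). Tagln, transgelin, had 164, 159.7 and 217 FPKM in MI, against 18.9, 17.99 and 16.9 FPKM in sham (log2 fold change 3.25 ± 0.14, adjusted p = 0.000116). Acta2 and Tagln differed less among the 3 MI libraries than the collagens Col1a1 and Col3a1 did. The median SD of the list was 0.329 on the log2 scale, against 1.098 for the fibrillar collagens, but it was above the 0.268 of all tested genes. Tpm1 and Des, a tropomyosin and desmin, which cardiomyocytes express strongly, are in the same list and were not called. Tpm1 had 5162, 3946 and 2999.8 FPKM in MI, against 5490.4, 5941 and 5772 FPKM in sham, and Des had 629, 407 and 309 FPKM in MI, against 380.0, 386 and 422 FPKM in sham. Without MI 1, 1 gene of the list was called lower.

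To see where the mature scar differed from the young one, the change after MI at 8 weeks was compared with that at 1 week, where 3 MI and 3 sham libraries of the same kind exist and no library is shared. Of 11689 genes, 2163 (18.5%) had a higher and 3281 (28.1%) a lower log2 fold change at 8 weeks (interaction term of limma over 18 libraries, adjusted p below 0.05), with a median difference of -0.175 over all genes. This fit takes a single variance per gene over all groups. Where the MI libraries of 8 weeks spread more than the other groups, its standard errors and p-values may therefore be too small. With median-ratio factors the numbers were 3196 and 2637. Without MI 3 of 8 weeks the lower ones numbered 5432. All 9 tested fibrillar collagens, 11 of 16 other collagens and 18 of 22 crosslinking and processing genes changed less at 8 weeks, with median differences of -1.96, -1.44 and -1.29. Col1a1 had 112, 190.3 and 534 FPKM in MI at 8 weeks and 3755, 3845 and 2768 FPKM in MI at 1 week (difference -2.35 ± 0.52, adjusted p = 0.0024). Lox had 10.1, 19.3 and 53.6 FPKM in MI at 8 weeks and 485, 424 and 357 FPKM in MI at 1 week (-3.11 ± 0.53, adjusted p = 0.000474). Tnc, tenascin C, a matrix protein of fresh wounds, had 1.80, 4.53 and 10.2 FPKM in MI at 8 weeks and 78.8, 116 and 58.0 FPKM in MI at 1 week (-3.51 ± 0.50, adjusted p = 0.000202), and its change at 8 weeks alone was 2.24 ± 0.45 (adjusted p = 0.00524). The other genes with the largest losses were Col11a1, a nucleating fibrillar chain (-3.46), Wisp1, a CCN protein (-3.34), and the imprinted non-coding RNA H19 of growing tissue (-3.38). H19 had MI and sham values that overlapped at 8 weeks (2.51, 3.84 and 10.6 FPKM in MI, against 5.88, 2.54 and 3.40 FPKM in sham).

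Of 11 small leucine-rich proteoglycans in this test, 3 had a higher log2 fold change at 8 weeks and 1 a lower one, with a median difference of 0.68. Over all genes 18.5% were higher and 28.1% lower, with a median difference of -0.175. Chad had 8.52, 23.3 and 53.1 FPKM in MI at 8 weeks and 1.59, 0.947 and 1.27 FPKM in MI at 1 week (3.35 ± 0.54, adjusted p = 0.000366). Prelp had 104, 244 and 393 FPKM in MI at 8 weeks and 110.4, 92.2 and 104 FPKM in MI at 1 week (1.45 ± 0.43, adjusted p = 0.0128). Of the 5 largest gains, which also took in Chad, Cytl1 had 48.5, 87.9 and 108 FPKM in MI at 8 weeks and 2.54, 0.993 and 3.28 FPKM in MI at 1 week (4.52 ± 0.42, adjusted p = 2.26e-05). The log2 fold change of Cytl1 was 3.26 at 8 weeks and -1.27, below sham, at 1 week. Myoc, myocilin, a secreted glycoprotein, had 23.2, 42.8 and 69.0 FPKM in MI at 8 weeks and 0.939, 0.647 and 1.97 FPKM in MI at 1 week (4.16 ± 0.39, adjusted p = 2.26e-05). Retnla, a resistin-like product of alternatively activated macrophages and fat, had 8.19, 24.1 and 81.7 FPKM in MI at 8 weeks and 0.858, 0.242 and 0.518 FPKM in MI at 1 week (4.62 ± 0.76, adjusted p = 0.000393) and was highest in MI 3, the library with most fat genes. Comp also gained (1.50 ± 0.42, adjusted p = 0.00967), as did Angptl7 (3.08 ± 0.50, adjusted p = 0.000386) and Gsn (2.74 ± 0.34, adjusted p = 8.39e-05). Gsn had 801, 1748 and 1849 FPKM in MI at 8 weeks and 221, 200.3 and 286 FPKM in MI at 1 week, a stage at which the sham libraries had 308, 259 and 267 FPKM. Of cell cycle genes, 12 of 14 had a lower log2 fold change at 8 weeks, as had 15 of 20 genes of recruited macrophages. In the muscle, 24 of 25 adult sarcomere genes and 22 of 25 genes of ketone and branched-chain amino acid catabolism had a higher log2 fold change at 8 weeks, with medians of -0.69 and -0.65 at 8 weeks and -2.50 and -1.83 at 1 week. Tcap, telethonin of the sarcomere, was the sarcomere gene with the largest gain, with 1198, 708 and 465 FPKM in MI at 8 weeks and 53.3, 82.4 and 201 FPKM in MI at 1 week (3.36 ± 0.52, adjusted p = 0.000289). The log2 fold change of Tcap was 0.44 at 8 weeks and -2.92 at 1 week, so that most of this gain was the fall at 1 week.

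**Figure D4:**
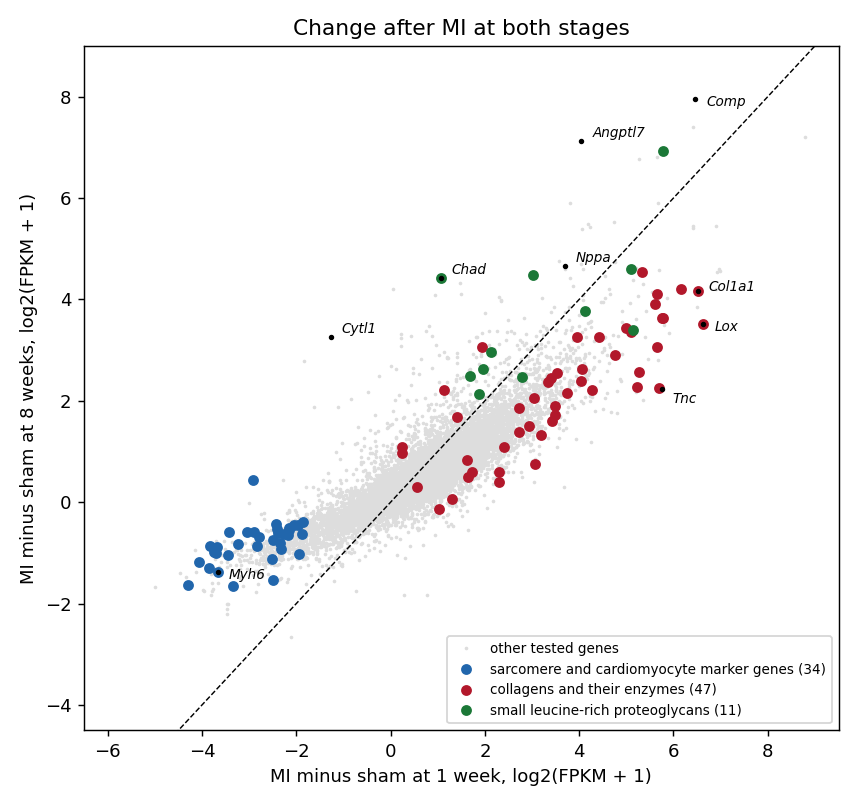
Log2 fold change of MI against sham at 1 week (horizontal) and at 8 weeks (vertical) for each tested gene, from 1 model over 18 libraries; the dashed line marks equal change. Collagens and their enzymes lie mostly below the line and sarcomere and cardiomyocyte marker genes above it, with Chad at 4.42 at 8 weeks and 1.07 at 1 week, and Lox at 3.52 and 6.64.

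In the muscle, a few stress genes were far above sham, and they were highest in MI 1, the library nearest to sham by the number of genes far from it. Of 23 tested fetal and stress genes of cardiomyocytes, 11 were higher and none lower (58.0% and 8.61% of all genes), 5 of them under all 4 scalings, with a median of 0.44 that was below 0 under the other 3 scalings, where 5 to 6 were higher and 0 to 4 lower. The higher calls numbered 7 without MI 2 and 7 without sham 2, and without MI 1 there were 5 lower calls. Nppa, the atrial natriuretic peptide that ventricles express before birth and in failure, had 10668, 4767 and 4969 FPKM in MI, against 254, 268 and 224 FPKM in sham (log2 fold change 4.67 ± 0.33, adjusted p = 0.000337). Ankrd1, a stretch-induced titin-binding repressor, had 3180.1, 2052 and 1825 FPKM in MI, against 482, 381 and 537 FPKM in sham (log2 fold change 2.30 ± 0.26, adjusted p = 0.000891). Myh7, the slow myosin heavy chain of the fetal mouse ventricle, had 709, 386 and 285 FPKM in MI, against 76.6, 83.5 and 60.2 FPKM in sham (log2 fold change 2.54 ± 0.32, adjusted p = 0.00123). Nppb, the brain natriuretic peptide, had 1103, 753 and 555 FPKM in MI, against 289, 191 and 273 FPKM in sham (log2 fold change 1.64 ± 0.28, adjusted p = 0.00308). In all 4 genes every MI library exceeded every sham library, and MI 1 was the highest. With median-ratio factors Nppb was no longer called (adjusted p = 0.0662). Acta1, skeletal actin, a fetal isoform named after its values were seen, had 637, 284 and 298 FPKM in MI, against 192, 101 and 242 FPKM in sham (log2 fold change 1.17 ± 0.41, adjusted p = 0.0403), with MI 1 the highest and MI 2 and MI 3 nearer to sham. Its call was lost under the other 3 scalings and without MI 1, MI 2, sham 1 or sham 2, and without these libraries its log2 fold change ran between 0.79 and 1.37.

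The bases before Nppb, Ankrd1 and Myh7 are shown because these 3 stress genes were higher in every MI library and all hold the letters CATTCC, on one strand or the other, of the MCAT element that TEA domain factors bind. Of 11 higher genes in the list, 5 hold these letters in the 250 bases before a start. So do 1209 of 9320 tested genes with a listed promoter. Among such genes, 7 of 21 in the whole list hold them, as do 7 of 20 adult sarcomere genes, none of which rose. They are also held by 8 of 18 smooth muscle and myofibroblast contractile genes and by 1 of 6 fibrillar collagens. These letters were thus not limited to genes that were higher in MI. Sequences are from RefSeq (GRCm38.p6) and are read 5′ to 3′ on the strand of the gene, up to the base before its start, with the match in capitals. For Myh7 the more upstream of its starts is shown, and the other holds no match. Nppa, with the largest difference of the list, holds none either, and a match of letters is a description and not a site.
Nppb (chr4:147985650-147985899, + strand): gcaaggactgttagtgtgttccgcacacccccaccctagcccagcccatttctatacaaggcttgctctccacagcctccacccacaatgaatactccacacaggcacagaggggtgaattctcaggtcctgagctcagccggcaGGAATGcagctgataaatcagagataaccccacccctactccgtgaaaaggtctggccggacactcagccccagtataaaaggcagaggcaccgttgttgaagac
Ankrd1 (chr19:36119845-36120094, - strand): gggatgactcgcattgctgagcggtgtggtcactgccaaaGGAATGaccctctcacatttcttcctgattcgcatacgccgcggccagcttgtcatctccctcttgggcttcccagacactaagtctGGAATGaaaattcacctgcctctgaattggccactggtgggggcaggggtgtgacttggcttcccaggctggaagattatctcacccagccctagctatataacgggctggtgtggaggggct
Myh7 (chr14:54994627-54994876, - strand): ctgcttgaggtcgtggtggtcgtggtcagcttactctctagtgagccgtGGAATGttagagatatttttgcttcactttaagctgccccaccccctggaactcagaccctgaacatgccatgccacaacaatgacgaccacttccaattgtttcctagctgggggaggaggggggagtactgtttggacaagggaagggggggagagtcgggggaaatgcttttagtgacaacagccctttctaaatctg

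Adult muscle genes were lower, and by the most in MI 3. Of 25 adult sarcomere genes, 14 fell and none rose (12 fell under all 4 scalings), with a median of -0.69 and medians of -0.21, -0.62 and -1.24 in MI 1, MI 2 and MI 3. With the other 3 scalings 14 to 22 fell, and the medians were -1.30 to -0.95. All 25 were highest in MI 1 and lowest in MI 3 among MI libraries. The number that fell was 24 without MI 1, 7 without MI 2 and 7, 8 and 6 without sham 1, 2 and 3. Myh6, the fast adult myosin heavy chain, had 1946, 1280.2 and 884 FPKM in MI, against 3234, 3207 and 3695 FPKM in sham (log2 fold change -1.37 ± 0.31, adjusted p = 0.00792). Ckm, the muscle creatine kinase bound to the M band, had 454, 346 and 201 FPKM in MI, against 920.0, 951 and 1079 FPKM in sham (log2 fold change -1.63 ± 0.29, adjusted p = 0.00347). Myl2, the ventricular regulatory light chain, had 10266, 6769 and 3458 FPKM in MI, against 11333, 11609 and 11003 FPKM in sham, with MI 1 close to sham, and did not pass (log2 fold change -0.86 ± 0.44, adjusted p = 0.12, and 0.0112 without MI 1).

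**Figure D5:**
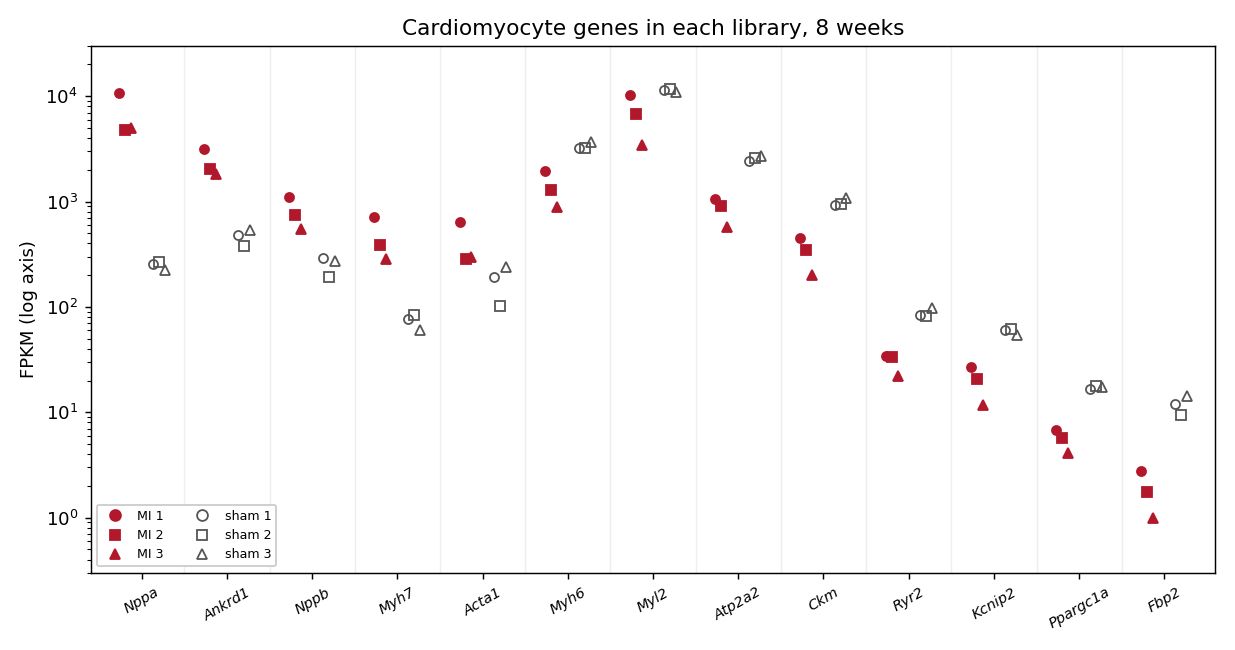
FPKM of 13 cardiomyocyte genes in each library on a log axis; MI in red on the left, sham in grey on the right of each gene. MI 1 was the highest MI library for all 13, for genes above sham, such as Nppa with 10668, 4767 and 4969 FPKM in the MI libraries, against 254, 268 and 224 FPKM in the sham libraries, and for genes below it, such as Atp2a2 with 1049, 899.9 and 577 FPKM in the MI libraries, against 2423, 2595 and 2678 FPKM in the sham libraries.

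Genes of calcium cycling, which empty and fill the sarcoplasmic reticulum at each beat, were mostly lower. Of 22 tested, 15 fell and 5 rose (14 and 1 under all 4 scalings), with a median of -0.66 (-1.22 to -1.09 under the other 3, where 1 to 2 rose), and 3 rose when any 1 sham library was left out. Atp2a2, the calcium pump SERCA2, had 1049, 899.9 and 577 FPKM in MI, against 2423, 2595 and 2678 FPKM in sham (log2 fold change -1.65 ± 0.25, adjusted p = 0.00208). Ryr2, the calcium release channel, had 34.1, 33.3 and 22.1 FPKM in MI, against 82.9, 81.4 and 96.7 FPKM in sham (log2 fold change -1.53 ± 0.18, adjusted p = 0.00102). Hrc, a calcium-binding protein inside the reticulum, had 169, 125 and 67.3 FPKM in MI, against 301, 317 and 330.2 FPKM in sham (log2 fold change -1.48 ± 0.31, adjusted p = 0.00602). Atp2a2 and Ryr2 were clearly below sham in MI 1 as well. The riser under all 4 scalings was Fkbp1b, a calcium channel-binding immunophilin, with 2.40, 3.38 and 5.21 FPKM in MI, against 0.273, 0.482 and 0.303 FPKM in sham (log2 fold change 1.74 ± 0.22, adjusted p = 0.00125). Fkbp1b lay below 1 FPKM in every sham library, so it passed the filter through the MI libraries alone and had to be higher there.

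Potassium channel genes, which set repolarization, fell in 15 of 22 cases, all under the 4 scalings, and rose in 3 (median -0.65). By the other 3 scalings 18 to 19 fell and 1 to 2 rose, with medians of -1.31 to -1.14. Kcnip2, the subunit that carries the transient outward current to the surface, had 27.1, 20.6 and 11.8 FPKM in MI, against 60.1, 62.3 and 54.5 FPKM in sham (log2 fold change -1.59 ± 0.27, adjusted p = 0.00287). Kcnj3, a G protein-gated inward rectifier, had 3.77, 3.84 and 2.36 FPKM in MI, against 11.3, 15.2 and 14.5 FPKM in sham (log2 fold change -1.77 ± 0.19, adjusted p = 0.000823). Abcc9, the sulfonylurea receptor of cardiac and pericyte KATP channels, had 16.2, 21.5 and 15.3 FPKM in MI, against 47.1, 50.7 and 47.5 FPKM in sham (log2 fold change -1.42 ± 0.14, adjusted p = 0.000682). In the opposite direction Kcne4, an inhibitory subunit, had 6.24, 10.2 and 17.9 FPKM in MI, against 0.694, 1.19 and 0.612 FPKM in sham (log2 fold change 2.67 ± 0.34, adjusted p = 0.00121). Of 21 conduction and sodium channel genes, 6 rose and 9 fell (4 and 9 under all 4 scalings), while 14 to 15 fell under the other 3. The shares, 28.6% higher and 42.9% lower, compare with 58.0% and 8.61% of all genes. Gjc1, connexin 45 of the nodes and of early heart, had 15.0, 13.6 and 15.1 FPKM in MI, against 5.94, 6.44 and 5.08 FPKM in sham (log2 fold change 1.20 ± 0.12, adjusted p = 0.000705). Gja1, connexin 43 of the working muscle, had 100.1, 86.1 and 76.1 FPKM in MI, against 94.8, 92.0 and 84.6 FPKM in sham, with overlapping groups (log2 fold change -0.06 ± 0.13, adjusted p = 0.701, and 0.0339 with median-ratio factors, as a fall). Dsp, desmoplakin of the cell junctions, had 74.6, 71.3 and 47.9 FPKM in MI, against 103, 109 and 105 FPKM in sham (log2 fold change -0.72 ± 0.17, adjusted p = 0.0103).

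Transcription factors of the cardiomyocyte and regulators of its fuel use were mostly lower. Of 24 factors, 13 fell, all under the 4 scalings, and 4 rose, with a median of -0.40, and 8 fell when any 1 sham library was left out. Each of the other 3 scalings gave 20 lower calls and 1 higher one, with medians of -1.05 to -0.95. Hopx, a homeodomain-only regulator, had 60.5, 55.6 and 26.3 FPKM in MI, against 133, 148 and 128 FPKM in sham (log2 fold change -1.59 ± 0.30, adjusted p = 0.00412). Rxrg, a retinoid X receptor, had 11.8, 9.34 and 5.93 FPKM in MI, against 28.3, 30.1 and 29.9 FPKM in sham (log2 fold change -1.65 ± 0.22, adjusted p = 0.0013). Of 24 energy regulators, 15 fell, all under the 4 scalings, and 3 rose (median -0.62), a number that was 7 without MI 1 and 1 without sham 1. There, too, the other 3 scalings gave more lower calls, 18 against 1 higher one, with medians of -1.22 to -1.18. Ppargc1a, the coactivator PGC-1alpha that drives mitochondrial biogenesis, had 6.80, 5.75 and 4.06 FPKM in MI, against 16.6, 17.6 and 17.4 FPKM in sham (log2 fold change -1.50 ± 0.17, adjusted p = 0.000903). Ppara, the receptor that switches on fatty acid oxidation, had 4.33, 4.39 and 3.16 FPKM in MI, against 10.9, 12.8 and 9.95 FPKM in sham (log2 fold change -1.30 ± 0.15, adjusted p = 0.00104). Pdk4, the kinase that blocks entry of pyruvate into mitochondria, had 28.7, 27.3 and 24.0 FPKM in MI, against 64.5, 92.1 and 227 FPKM in sham (log2 fold change -2.02 ± 0.42, adjusted p = 0.00587), with sham 3 far above the other sham libraries. Ucp2, an uncoupling protein of leukocytes and many other cells, rose, with 49.9, 73.2 and 124 FPKM in MI, against 18.3, 20.2 and 23.5 FPKM in sham (log2 fold change 1.85 ± 0.31, adjusted p = 0.00267).

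Genes that burn ketones and branched-chain amino acids formed the muscle list that differed least among MI libraries. Of 25 tested, 20 fell, all under the 4 scalings, and none rose, with a median of -0.65, medians of -0.48, -0.62 and -0.77 in MI 1, MI 2 and MI 3, and a median SD of 0.147 among MI libraries. Under the other 3 scalings 22 to 23 fell, with medians of -1.28 to -1.09. Oxct1, the enzyme that activates ketone bodies, had 218, 187 and 142 FPKM in MI, against 305, 284 and 327 FPKM in sham (log2 fold change -0.76 ± 0.17, adjusted p = 0.00845). Ivd, isovaleryl-CoA dehydrogenase of leucine breakdown, had 59.5, 54.8 and 40.6 FPKM in MI, against 108, 105 and 108 FPKM in sham (log2 fold change -1.05 ± 0.15, adjusted p = 0.0017). Ppm1k, the phosphatase that switches on branched-chain keto acid oxidation, had 6.58, 6.68 and 4.96 FPKM in MI, against 12.7, 14.5 and 11.97 FPKM in sham (log2 fold change -0.998 ± 0.14, adjusted p = 0.0017). Of 14 creatine and phosphotransfer genes, 7 fell and 3 rose, all of them under the 4 scalings, 9 to 11 fell under the other 3, and 5 rose without MI 1. Ckmt2, the mitochondrial creatine kinase, had 601, 506 and 287 FPKM in MI, against 1042, 1016 and 1257 FPKM in sham (log2 fold change -1.31 ± 0.28, adjusted p = 0.00695), whereas Ckb, the brain-type kinase that the fetal heart uses, had 52.1, 56.4 and 63.8 FPKM in MI, against 16.04, 17.9 and 16.3 FPKM in sham (log2 fold change 1.72 ± 0.11, adjusted p = 0.000307).

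The largest falls were of muscle metabolism and membrane genes. Fbp2, the muscle fructose bisphosphatase, had 2.78, 1.75 and 0.986 FPKM in MI, against 11.9, 9.51 and 14.1 FPKM in sham (log2 fold change -2.21 ± 0.26, adjusted p = 0.000988, chromosome 13, 62836884 to 62858400). Efnb3, a membrane-bound ephrin, had 3.31, 4.25 and 1.65 FPKM in MI, against 13.8, 18.4 and 16.02 FPKM in sham (log2 fold change -2.12 ± 0.26, adjusted p = 0.0011). Ogdhl, a mitochondrial oxoglutarate dehydrogenase-like enzyme, had 13.8, 12.5 and 5.64 FPKM in MI, against 42.1, 39.4 and 49.9 FPKM in sham (log2 fold change -2.02 ± 0.30, adjusted p = 0.00188). In each, no MI library reached the lowest sham library. Plin5, which ties lipid droplets to mitochondria, had 17.5, 13.03 and 7.56 FPKM in MI, against 39.0, 42.7 and 48.0 FPKM in sham (log2 fold change -1.76 ± 0.27, adjusted p = 0.00208). Car14, a membrane carbonic anhydrase, had 13.6, 13.3 and 6.68 FPKM in MI, against 37.8, 40.4 and 43.2 FPKM in sham (log2 fold change -1.82 ± 0.25, adjusted p = 0.00147). Lrtm1 (-1.75) and Tuba8, a muscle tubulin (-1.73), were of the same size. The largest fall by the naming rule, of Apoo-ps, a pseudogene whose reads may be shared with its parent gene Apoo, rested on a level of 0.00369 FPKM in MI 1, with 14.6 and 8.05 FPKM in MI 2 and MI 3, against 32.2, 32.3 and 31.6 FPKM in the sham libraries (log2 fold change -2.66 ± 0.92, adjusted p = 0.0369). This call was lost without any 1 sham library and is uncertain.

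Neurohormone genes split. Of 22 tested genes of the renin-angiotensin, endothelin and adrenergic systems, 11 rose and 5 fell (6 and 5 under all 4 scalings), with a median of 0.56 that was just below 0 under the other 3 scalings, where 6 to 7 rose and 8 to 9 fell. Over all genes 58.0% rose. Ace, which makes angiotensin II, had 33.6, 58.0 and 77.2 FPKM in MI, against 8.71, 9.32 and 9.93 FPKM in sham (log2 fold change 2.40 ± 0.28, adjusted p = 0.000986). Edn1, endothelin 1, had 3.53, 6.18 and 6.71 FPKM in MI, against 1.43, 1.18 and 1.17 FPKM in sham (log2 fold change 1.48 ± 0.22, adjusted p = 0.00178). Corin, the protease of cardiomyocytes that activates pro-atrial natriuretic peptide, fell, with 20.6, 16.6 and 12.1 FPKM in MI, against 32.6, 31.9 and 35.4 FPKM in sham (log2 fold change -1.01 ± 0.18, adjusted p = 0.00366), while its substrate gene Nppa was above sham. Of 13 genes of the IGF axis, 9 rose and 1 fell (8 and 1 under all 4 scalings, median 2.18), and 2 fell without MI 3 and 3 under each of the other 3 scalings. The share of this list that rose, 69.2%, is near the 58.0% of all genes. Igfbp6, a binding protein selective for IGF2, had 48.0, 72.7 and 126 FPKM in MI, against 3.37, 3.60 and 3.47 FPKM in sham (log2 fold change 4.11 ± 0.31, adjusted p = 0.000399), and its change was larger than at 1 week (2.62 ± 0.34, adjusted p = 0.000118). Igfbp7, an abundant binding protein of vessels and stroma, had 505, 769 and 1132 FPKM in MI, against 82.6, 81.8 and 90.1 FPKM in sham (log2 fold change 3.15 ± 0.28, adjusted p = 0.000546).

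Leukocyte genes were still above sham at 8 weeks. Of 20 tested genes of recruited and lipid-handling macrophages, 18 rose and 1 fell, all of them under the 4 scalings, with a median of 2.88 and medians of 2.22, 2.79 and 3.46 in MI 1, MI 2 and MI 3. Of all tested genes 58.0% rose and 8.61% fell. Of the 20, 7 lay below 1 FPKM in every sham library, Gpnmb and Trem2 among them, and so had to be higher in MI. Gpnmb, a glycoprotein of phagocytes loaded with lipid, had 65.3, 37.3 and 53.0 FPKM in MI, against 0.178, 0.183 and 0.172 FPKM in sham (log2 fold change 5.45 ± 0.20, adjusted p = 5.59e-05). Lgals3, galectin 3, had 86.6, 59.0 and 103 FPKM in MI, against 0.640, 1.09 and 1.10 FPKM in sham (log2 fold change 5.41 ± 0.22, adjusted p = 8.78e-05). Trem2, a lipid receptor of these macrophages, had 21.8, 16.6 and 33.8 FPKM in MI, against 0.266, 0.211 and 0.645 FPKM in sham (log2 fold change 4.14 ± 0.26, adjusted p = 0.000301). MI 2 was the lowest MI library for these 3 genes, whereas MI 1 was the lowest for 12 of the 20. The gene that fell, Lpl, lipoprotein lipase, is also made by cardiomyocytes and had 517, 409.6 and 308 FPKM in MI, against 886, 923 and 915 FPKM in sham (log2 fold change -1.17 ± 0.20, adjusted p = 0.00322). Of 11 genes of resident macrophages, 7 rose (5 under all 4 scalings), a share of 63.6% near the 58.0% of all genes. Under each of the other 3 scalings 1 fell. Those that rose numbered 10 without MI 1 and 4 without MI 2 or without sham 2. Gas6, a ligand for receptors of dead-cell uptake that other cells make too, had 126, 207 and 357 FPKM in MI, against 38.5, 37.7 and 36.8 FPKM in sham (log2 fold change 2.45 ± 0.34, adjusted p = 0.00152). Lyve1, which also marks lymph vessels, was at sham level in MI 1, with 5.99, 25.8 and 32.1 FPKM in MI, against 6.00, 6.66 and 8.31 FPKM in sham (log2 fold change 1.21 ± 0.55, adjusted p = 0.0853, and 8.96e-05 without MI 1).

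All 9 tested MHC class II genes rose (7 under all 4 scalings, median 2.28). H2-Aa, a chain of the antigen-presenting molecule, had 99.6, 155 and 188 FPKM in MI, against 28.4, 27.4 and 29.9 FPKM in sham (log2 fold change 2.28 ± 0.22, adjusted p = 0.000665). Lymphocyte transcripts were low. Of 25 T lymphocyte genes, 4 passed the filter and all rose (3 under all 4 scalings), where 58.0% of all genes rose. Of 18 B lymphocyte and plasma cell genes, 6 passed and 5 rose (5 under all 4 scalings). Of these, 3 of the 4 and 4 of the 6 lay below 1 FPKM in every sham library. Such genes passed the filter through the MI libraries alone and had to be higher there. Il7r, the interleukin 7 receptor, had 3.73, 2.35 and 4.19 FPKM in MI, against 0.0619, 0.0937 and 0.0587 FPKM in sham (log2 fold change 2.02 ± 0.18, adjusted p = 0.00055). Igj, the joining chain of secreted antibodies, had 4.04, 9.78 and 25.8 FPKM in MI, against 0.196, 0.132 and 0.217 FPKM in sham (log2 fold change 3.26 ± 0.54, adjusted p = 0.00269). Of 14 neutrophil genes, 5 passed and were higher, none of them under all 4 scalings, and without sham 1 or sham 2 only 1 and 2 were. Complement genes rose in 19 of 21 cases (16 under all 4 scalings, median 2.19). C4b, an early component of the classical pathway, had 22.6, 53.1 and 133 FPKM in MI, against 2.51, 1.41 and 3.64 FPKM in sham (log2 fold change 4.03 ± 0.59, adjusted p = 0.00182). C3, on which all pathways converge, had 105, 196 and 693 FPKM in MI, against 23.2, 13.3 and 32.8 FPKM in sham (log2 fold change 3.43 ± 0.67, adjusted p = 0.00468). Cell cycle genes were low but above sham: 14 of 25 passed the filter and all were higher, 5 under all 4 scalings, with a median of 0.92, and 5 to 12 were under the other 3, with medians of 0.28 to 0.54. Of the 14, 6 lay below 1 FPKM in every sham library and so passed through the MI libraries alone. Birc5, survivin, a gene of mitosis, had 1.84, 2.56 and 2.92 FPKM in MI, against 0.346, 0.462 and 0.472 FPKM in sham (log2 fold change 1.26 ± 0.15, adjusted p = 0.00106).

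Vessel genes did not move together. Of 26 tested endothelial genes, 10 rose and 5 fell (5 and 5 under all 4 scalings, median 0.26 and below 0 under the other 3 scalings, where 5 to 6 rose and 10 to 11 fell), and 2 fell without sham 3 and 3 without sham 1 or sham 2. The share that rose, 38.5%, lay below the 58.0% of all genes. Plvap, the diaphragm protein of leaky and venous endothelium, had 24.4, 43.4 and 68.4 FPKM in MI, against 4.46, 3.21 and 3.85 FPKM in sham (log2 fold change 3.15 ± 0.34, adjusted p = 0.000835). Nr2f2, the factor of venous identity, had 4.82, 7.58 and 9.59 FPKM in MI, against 1.44, 1.41 and 1.23 FPKM in sham (log2 fold change 1.78 ± 0.22, adjusted p = 0.00118). Cd36, the fatty acid transporter of capillaries and muscle, fell, with 232, 234 and 185 FPKM in MI, against 411, 425 and 449.9 FPKM in sham (log2 fold change -0.99 ± 0.14, adjusted p = 0.00152). Of 7 tested lymphatic genes, 5 rose (4 under all 4 scalings), and 1 fell without MI 2 and under each of the other 3 scalings. The 71.4% that rose is near the 58.0% of all genes, and 2 of the 7 lay below 1 FPKM in every sham library. Ccl21a, the chemokine of lymph vessels, had 84.9, 163 and 157 FPKM in MI, against 15.0, 11.8 and 10.8 FPKM in sham (log2 fold change 3.28 ± 0.26, adjusted p = 0.000461), a larger change than at 1 week (2.86 ± 0.38, adjusted p = 0.000118). Pdpn, podoplanin of lymphatic, mesothelial and stromal cells, had 12.9, 18.2 and 40.2 FPKM in MI, against 0.926, 0.688 and 0.937 FPKM in sham (log2 fold change 3.59 ± 0.37, adjusted p = 0.000736). Of 12 pericyte genes, 5 rose and 1 fell (4 and 1 under all 4 scalings), and 2 fell without MI 2. Falls outnumbered rises under each of the other 3 scalings, 6 against 4, with medians of -0.44 to -0.37, and the 41.7% that rose compares with 58.0% of all genes.

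Genes of other tissues made up most of the single genes with the widest spread among MI libraries. By list this was not so throughout. The median SD among MI libraries was 1.422 for mesothelial and epicardial markers and 1.098 for fibrillar collagens. It was 1.022 for adipocyte markers and 0.73 for skeletal muscle markers. Of the 10 tested genes with the widest MI range and at least 5 FPKM in 1 MI library, Cfd, Scd1 and Cdo1 are abundant in fat, Tnnt3, Mylpf and Tnni2 belong to fast skeletal muscle and Upk3b to mesothelium. Scd1, a fatty acid desaturase, had 3.86, 188 and 253 FPKM in MI, against 1.96, 2.30 and 1.93 FPKM in sham (log2 fold change 4.33 ± 1.39, adjusted p = 0.0291). Its call was lost with quantile normalization, with the authors' values and without any 1 library other than MI 1. Mylpf, a fast myosin light chain, had 3.36, 1.53 and 62.4 FPKM in MI, against 0.384, 0.452 and 0.425 FPKM in sham (log2 fold change 2.64 ± 1.09, adjusted p = 0.0657), with MI 3 far the highest. It passed the test when any 1 MI library was left out. Hp, haptoglobin, had 11.50, 86.3 and 279.9 FPKM in MI, against 0.605, 0.219 and 0.927 FPKM in sham (log2 fold change 5.44 ± 1.00, adjusted p = 0.00391). Saa3, an acute phase protein with close paralogues, had 11.4, 3.32 and 67.8 FPKM in MI, against 0, 0 and 0.446 FPKM in sham (log2 fold change 3.77 ± 0.90, adjusted p = 0.0097), with MI 2 the lowest MI library. A further 54 genes had at least 5 FPKM in 1 library but failed the filter, 48 of them highest in MI 3, 6 in MI 2 and none in MI 1 or sham. They include the fat gene Retn, resistin, with 0.118, 23.0 and 81.1 FPKM in MI, against 0.0697, 0.0788 and 0.155 FPKM in sham. Cidec, a protein of large lipid droplets, had 0.129, 26.6 and 76.8 FPKM in MI, against 0.0886, 0 and 0.0981 FPKM in sham. The muscle gene Tnnc2, a troponin C, had 3.00, 0.638 and 60.4 FPKM in MI, against 0.0541, 0.0637 and 0.120 FPKM in sham. These 3 genes were highest in MI 3. Cyp2f2, an enzyme of airway cells, had 0.0600, 1.88 and 10.7 FPKM in MI, against 0.0164, 0 and 0 FPKM in sham, again highest in MI 3. Chil3, a chitinase-like protein of alveolar and recruited macrophages, had 0.193, 23.4 and 1.01 FPKM in MI, against 0.0795, 0.0936 and 0.264 FPKM in sham, high in MI 2 only. Hba-a1, a haemoglobin gene whose reads may be split with a near-identical copy, was also highest in MI 2, with 309, 1202 and 586 FPKM in MI, against 284, 313 and 248 FPKM in sham.

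The small RNA of ventricles that carry the same numbers in the labels was sequenced too, and 12 of 13 chosen miRNAs were listed. Values are RPM, the reads of a miRNA scaled to all reads assigned to miRNAs, and are a description without a test. These reads numbered 28778530 to 39735944 in the MI libraries, against 32957817 to 37800899 in the sham libraries. miR-208a-3p is coded inside an intron of Myh6, miR-208b-3p inside Myh7 and miR-499-5p inside Myh7b, each in a myosin gene. Their sequences from RefSeq (GRCm38.p6) are shown because they share the seed, bases 2 to 8, in capitals, apart from its last base in miR-499-5p.
miR-208b-3p (chr14:54975710-54975731, - strand): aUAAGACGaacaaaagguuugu
miR-208a-3p (chr14:54949072-54949093, - strand): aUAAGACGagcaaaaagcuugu
miR-499-5p (chr2:155622893-155622913, + strand): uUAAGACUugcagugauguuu

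The miRNA of the slow myosin gene was high where that of the fast gene was low. miR-208b-3p had 1691, 2122 and 1368 RPM in MI, against 389, 264 and 421 RPM in sham. miR-208a-3p had 336, 415 and 236 RPM in MI, against 1118, 1255 and 1251 RPM in sham, and miR-499-5p had 202, 305 and 101 RPM in MI, against 1027, 1087 and 923 RPM in sham. The groups did not overlap for any of the 3, and their mRNA partners Myh7 and Myh6 lay on the same sides of sham. The muscle miRNAs miR-1a-3p and miR-133a-3p were lower. miR-1a-3p had 1155, 1493 and 769 RPM in MI, against 8638, 9122 and 9653 RPM in sham. miR-133a-3p had 63568, 65674 and 36496 RPM in MI, against 184225, 187018 and 175032 RPM in sham. Both, like the 3 miRNAs of myosin genes, were lowest in MI 3, as the 25 adult sarcomere mRNAs were. The order of the other MI libraries differed: all these miRNAs were highest in MI 2, whereas the 25 mRNAs were highest in MI 1.

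miRNAs of fibroblasts and cartilage were higher. Those with the largest differences are shown with their seeds, which they do not share.
miR-21a-5p (chr11:86584120-86584141, - strand): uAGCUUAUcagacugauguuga
miR-199a-3p (chr1:162217883-162217904, + strand, and the same bases at chr9:21496498-21496519, - strand): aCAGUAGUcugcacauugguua
miR-214-3p (chr1:162223438-162223459, + strand): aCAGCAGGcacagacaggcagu
miR-140-3p (chr8:107551288-107551308, + strand): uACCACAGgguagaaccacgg

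miR-140-3p, from an intron of Wwp2 and enriched in cartilage, had 5220.3, 4404 and 7337 RPM in MI, against 408, 397 and 303 RPM in sham, a ratio of means of 15.3. miR-214-3p had 665, 605 and 894 RPM in MI, against 56.8, 57.8 and 55.3 RPM in sham (ratio 12.7), and miR-199a-3p, from the same cluster on chromosome 1, had 55249.9, 52434 and 54419 RPM in MI, against 6206, 5342 and 5409 RPM in sham (ratio 9.56). miR-21a-5p had 16380.3, 13799 and 23444 RPM in MI, against 1745, 1445 and 2191 RPM in sham (ratio 9.96). MI 3 was the highest for miR-140-3p, miR-214-3p and miR-21a-5p, but for miR-199a-3p the 3 MI libraries lay close together. The neutrophil and macrophage miRNA miR-223-3p had 191, 174 and 321 RPM in MI, against 73.7, 57.3 and 85.2 RPM in sham, and miR-150-5p of lymphocytes had 310.2, 322 and 248 RPM in MI, against 554, 567 and 471 RPM in sham.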

How the data were processed

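Polyadenylated and small RNA of pooled LV was sequenced from MI and sham mice. The mRNA values are FPKM that the authors deposited per gene (per the labels, TopHat2 2.0.13, Bowtie2 2.2.3 and Cufflinks 2.2.1 on mm10, with no options given, from a TruSeq RNA kit). The authors also deposited log2(FPKM + 1) values that they normalized so that all libraries share nearly the same distribution. For miRNAs the authors deposited a read count per mature miRNA and its RPM, and their mapper is not given in the sources used here. Columns of the authors' own fold changes and p-values, and their group means, were not used, nor were 18 further per-sample columns of the miRNA table.

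Genes that reached 1 FPKM in 3 or more libraries of 8 weeks were tested with limma 3.58.1 in R 4.3.3 on log2(FPKM + 1), with an intensity trend and no block, and p-values were adjusted over all tested genes (Benjamini-Hochberg, threshold 0.05). The difference between 8 weeks and 1 week was an interaction term in a fit of all 18 mRNA libraries, with a single variance per gene over all groups. The scripts were tested on simulated data. Lists are described by the number of genes called and the median of their log2 fold changes, without a test. The genes named were, for each direction, the 10 largest changes without overlap of the groups and with a mean of at least 5 FPKM, the genes with the largest changes or levels in each list, the 10 with the widest MI range, and the 5 largest differences from 1 week in each direction, without clone-named genes. Some genes that meet this rule are not reported here. Acta1, Col2a1, Eln, Lrrc15, Meox1, Mmp15, Postn, Scx, Sox9, Tcf21, Timp4 and Trem2 fall outside that rule and were chosen after their values were seen, as were the genes that show fat, muscle, lung or airway RNA. The members and lists were chosen with earlier results of these data known. Alternatives were another pseudocount (0.1), other filters, 3 other scalings, a fit on all stages, no trend, a replicate block and leaving out each library.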

Additional observations from a re-analysis of the deposited data

Results flagged for a closer look

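The change after MI differed between stages. In the interaction test of limma over 18 libraries, 2163 genes had a higher and 3281 a lower log2 fold change (MI against sham) at 8 weeks than at 1 week. Of the genes named, the log2 fold change was higher at 8 weeks, each with an adjusted p below 0.05, by 4.62 for Retnla, 4.52 for Cytl1, 4.16 for Myoc, 3.36 for Tcap, 3.35 for Chad, 3.08 for Angptl7, 2.86 for Ccl21a, 2.74 for Gsn, 2.62 for Igfbp6, 1.5 for Comp and 1.45 for Prelp. It differed by -3.51 for Tnc, -3.46 for Col11a1, -3.38 for H19, -3.34 for Wisp1, -3.11 for Lox and -2.35 for Col1a1, which were lower at 8 weeks. For each of these 17 genes the direction and the call held under every alternative run. All these fits shared a single variance per gene over all groups, which may understate the spread of the MI libraries of 8 weeks. Groups of 3 libraries are too small for a test of single outlying samples.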

How the results depend on the processing

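The scaling decided how many genes were called in each direction at 8 weeks, against 6778 higher and 1006 lower as reported. With quantile normalization there were 2806 higher and 3836 lower, with median-ratio factors 3489 and 3493, with the authors' normalized values, an alternative chosen after seeing the data, 2896 and 3847, and among genes with a mean of at least 5 FPKM 3768 and 815. Leaving out 1 library gave 4903 to 8405 higher and 582 to 1314 lower calls at 8 weeks, and between stages 1898 to 2430 higher and 2415 to 5432 lower ones. The causes were not tested.

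Of 1672 values of 112 genes under the alternatives, 2 changed sign, of genes that were not called: Col4a1 was at -0.2477 with median-ratio factors, and Gja1 ran between -0.1579 and 0.038 when 1 library was left out, above 0 without MI 3. Of list medians, those of fetal and stress genes were at -0.1585 with quantile normalization, -0.1501 with median-ratio factors and -0.1685 with the authors' values. Taking the authors' values first, then median-ratio factors and quantile normalization, they were at -0.046, -0.0023 and -0.0425 for renin-angiotensin, endothelin and adrenergic genes, -0.3398, -0.3179 and -0.3241 for endothelial genes, -0.3893, -0.4352 and -0.3713 for pericyte genes, and -0.1587, -0.0087 and -0.2131 for atrial markers. Mast cell genes were at -0.0395 with the authors' values and -0.1424 with quantile normalization, adipocyte markers at -0.0747 with median-ratio factors, and the 1 tested liver marker at -0.6685, -0.3821 and -0.6546. Without 1 library the liver marker ran between -0.1226 and 0.2005 and the brown adipocyte list between -0.3162 and 0.1258. Of list medians under all alternatives, 575 of 657 kept their sign and moved by less than the median SD of the list's genes among MI libraries. A further 58 kept their sign and moved by at least that much, and 24 changed sign.

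With the replicate number as a block, 6193 genes were higher and 844 lower at 8 weeks, and 2012 higher and 3145 lower between stages. Same-numbered MI and sham libraries correlated at 0.039, 0.044 and 0.051 in their deviations. Those of unlike number ran from -0.099 (MI 2 with sham 3) to 0.053 (MI 2 with sham 1). With 3 libraries per group these values cannot show whether the numbers pair the samples.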
